A study of Mus musculus with 25 samples.

Results

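The mitochondrially encoded mRNAs are the protein-coding transcripts made from the circular genome inside the organelle. The 10 named here are mt-Nd1, mt-Nd3, mt-Nd4, mt-Nd5, mt-Nd6, mt-Cytb, mt-Co1, mt-Co2, mt-Co3 and mt-Atp6. They were found by their symbols among the loci that the files place on the mitochondrial chromosome, which were 31 of 46499 loci at 20 weeks and 31 of 46052 loci at 39 weeks. The 10 mRNAs stood on 9 loci, because the files join mt-Atp6 and mt-Co3 with mt-Atp8 in 1 locus. The mt-Nd4 locus also holds mt-Nd4l, and the mt-Nd1 locus also holds the transfer RNA gene mt-Ti. Of the 9 loci, 4 had values above 0 at 20 weeks (mt-Nd1, mt-Nd3, mt-Nd5 and mt-Nd6) and 7 at 39 weeks (the same 4, mt-Nd4, mt-Cytb and mt-Co2). All of these passed the filter of a mean of 1 FPKM, and the other loci were listed at 0 in every mouse.

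Liver RNA was sequenced from 25 C57BL/6 mice fed a standard diet, and the genotypes are given as Ncoa5+/- or wild type. Ncoa5 encodes a coregulator of nuclear receptors, and Ncoa5+/- mice carry 1 altered copy. The untreated 20-week cohort held 4 mice labelled Ncoa5+/- and 4 wild type mice. The 39-week cohort held 5 untreated mice labelled Ncoa5+/-, 4 untreated wild type mice, and 5 mice labelled Ncoa5+/- and 3 wild type mice given metformin, a glucose-lowering drug, in drinking water at about 250 mg/kg/day from week 8 for 31 weeks. Libraries of the cohorts were made at different facilities and run on different instruments, so levels are not compared between ages. The purpose named in the series' title is to study how metformin acts on precancerous liver.

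Each mitochondrially encoded mRNA specifies a core subunit of the respiratory chain or of the ATP synthase, the machines that turn the energy of nutrients into ATP. Nearly all are cut from 1 long transcript of the heavy strand, so their levels depend on how each piece is processed and how stable it is as well as on transcription; mt-Nd6 alone is read from the light strand. The liver is rich in mitochondria, and complex I, to which the mt-Nd proteins belong, is a known target of metformin.

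Levels are in FPKM, the number of fragments per kilobase of transcript after scaling to a fixed total of mapped fragments, which allows genes of different length to be compared. No read counts were used, so read depth is unknown and precision was judged from the replicate mice alone. Ncoa5 itself did not separate the labels: at 39 weeks untreated it ranged from 2.63 to 4.42 FPKM in mice labelled Ncoa5+/- and from 3.60 to 4.68 in wild type mice, and at 20 weeks from 2.90 to 5.03 and from 3.11 to 5.30. The genotypes below are therefore those of the labels. The liver markers fixed for hepatocytes were present: 7 of 13 could be summed at 39 weeks, to 5657 to 9122 FPKM in untreated wild type mice and 6402 to 8290 in untreated mice labelled Ncoa5+/-, while Alb and Serpina1a were listed at 0 in every mouse. The summed markers of each of 8 other cell types or tissues overlapped between these groups. The summed FPKM of nuclear protein-coding loci did differ between the labels in both cohorts, in opposite directions. At 39 weeks it was 544416 to 581979 in untreated wild type mice and 466476 to 540215 in untreated mice labelled Ncoa5+/-. At 20 weeks it was 366722 to 446460 in wild type mice and 519353 to 544763 in mice labelled Ncoa5+/-. In 3 libraries the 50 highest loci took over 70% of all FPKM: wild type mouse 4 at 20 weeks, untreated mouse 3 labelled Ncoa5+/- and metformin mouse 5 labelled Ncoa5+/-.

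The sequences of 2 members show a limit on how their levels can be read. Parts of the mouse mitochondrial genome have been copied into chromosome 1 of the nucleus, where the annotation lists the copies as unprocessed pseudogenes. In the pairs printed here, the capital letter marks the single base at which the copy differs, counted from 1 at the 5′ end of the mitochondrial gene. The mt-Nd3 stretch lies at chrMT:9459-9511 (plus strand) and its copy Gm28438 at chr1:24613067-24613119 (minus strand), in GRCm38 with GENCODE gene models. The substitution is T3C, and 345 of the 348 bases of mt-Nd3 align with no other difference. The mt-Co1 stretch lies at chrMT:6390-6443 (plus strand) and its copy Gm29216 at chr1:24616135-24616188 (minus strand), with the substitution A1066T as the 1 difference in 483 aligned bases.
mt-Nd3: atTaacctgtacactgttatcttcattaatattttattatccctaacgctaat
Gm28438: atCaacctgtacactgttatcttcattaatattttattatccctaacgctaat
mt-Co1: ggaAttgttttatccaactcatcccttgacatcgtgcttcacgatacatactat
Gm29216: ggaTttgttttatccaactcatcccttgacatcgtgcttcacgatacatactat

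A read that does not cover the differing base matches both places equally well. Near-identical nuclear copies, meaning at least 98% identity over at least 50 bases, covered 99.9% of mt-Co3, 99.6% of mt-Co2, 99.6% of mt-Atp6 and 99.1% of mt-Nd3. They covered 63.6% of mt-Nd4 and 31.3% of mt-Co1, and no such copy was found for mt-Nd1, mt-Nd5, mt-Nd6 or mt-Cytb. At 39 weeks the 2 members at a few FPKM, mt-Nd3 and mt-Co2, are both copied over nearly their whole length. The nuclear copies of these 2 were low as well, with Gm28438 at 1.07 to 5.61 FPKM and Gm28661, the copy of mt-Co2, at 0 to 0.935 FPKM at 39 weeks. The part of the copies in these low levels was not tested. The authors' deposited table marks all loci listed at 0, 5 at 20 weeks and 2 at 39 weeks, as having too many fragments to estimate, so their 0 is a failed estimate and no low level. They include members with a full copy (mt-Atp6 and mt-Co3), a partial copy (mt-Co1) and, at 20 weeks, no copy (mt-Cytb). At 20 weeks they also include mt-Co2, with a full copy, and mt-Nd4, with a partial copy. The low 39-week values of mt-Co2 may therefore not give its abundance.

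**Figure D1:**
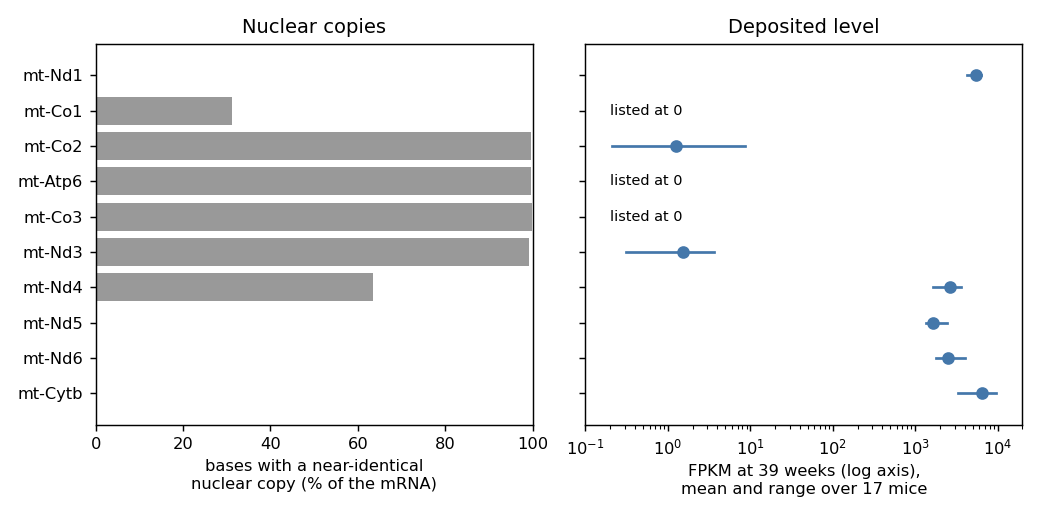
Left, percent of the bases of each mitochondrially encoded mRNA that have a near-identical nuclear copy. Right, mean (point) and range (line) of its FPKM over the 17 mice at 39 weeks on a log axis. mt-Nd3 and mt-Co2 have means of 1.52 and 1.26 FPKM. mt-Nd1, mt-Nd5, mt-Nd6 and mt-Cytb, with no such copy, are at 1342 FPKM or more in every mouse. mt-Nd4, copied over 63.6% of its bases, is at 1659 FPKM or more in every mouse. The loci listed at 0 are failed estimates, not low levels, and include mt-Atp6 and mt-Co3, which have a full copy. The part of the copies in these levels was not tested.

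A second limit concerns mt-Nd5 and mt-Nd6, which lie on opposite strands and share their last 14 bases. The files give both loci the same span, from 11742 to 14070. The last 40 bases of each are printed 5′ to 3′, mt-Nd5 from chrMT:13526-13565 (plus strand) and mt-Nd6 from chrMT:13552-13591 (minus strand), with the shared bases in capitals.
mt-Nd5: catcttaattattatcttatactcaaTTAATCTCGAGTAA
mt-Nd6: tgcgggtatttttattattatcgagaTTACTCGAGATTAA
Whether the libraries keep the strand is not given in the sources used here, so reads from this overlap may be counted for either gene. Because both loci carry the same span, the limit may reach beyond these 14 bases. How far it reaches was not tested, so the levels of mt-Nd5 and mt-Nd6 may not be separate by strand.

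Among the untreated 39-week livers, the abundant mitochondrially encoded mRNAs were lower in mice labelled Ncoa5+/- than in wild type mice, most so for mt-Cytb, but no member passed the test over all loci. With limma on log2(FPKM + 1) and Benjamini-Hochberg adjustment, 0 of 7 tested members were called, beside 0.262% of all 11441 loci tested. At an unadjusted p under 0.05, 4 of 7 members were lower and 0 higher, beside 2.81% of all loci lower. The log2 fold change was negative for 6 of 7, beside 55.5% of all loci; among the 6, the sign of mt-Nd1 turned under 2 scalings. The groups did not overlap for 3 of 7 members, all lower in mice labelled Ncoa5+/-, beside 0.717% of all loci. The median log2 fold change was -0.31 over the 7 members and -0.02 over all loci tested. In a bulk sample, fewer cells of a type and less RNA per cell cannot be told apart.

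mt-Cytb, the only mitochondrially encoded subunit of complex III, spans chrMT:14145-15288 and is the last protein-coding gene on the heavy-strand transcript. The untreated wild type livers held 9444, 8287, 7548 and 8968 FPKM, and those labelled Ncoa5+/- held 3261, 7046, 6078, 4009 and 4403 FPKM. The highest mouse labelled Ncoa5+/- was below the lowest wild type mouse, and mice 1, 4 and 5 stood apart from mice 2 and 3 within that group. The means were 8562 ± 826 (SD, n = 4) and 4959 ± 1558 FPKM (SD, n = 5), a log2 fold change of -0.84 ± 0.22 (SE). Its unadjusted p was 0.00145, rank 64 of all loci, and its adjusted p was 0.257 with limma. Over the alternatives run, the log2 fold change lay between -0.98 and -0.67 and the adjusted p between 0.0847 and 0.827.

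mt-Nd4, a proton-pumping subunit of complex I, was 3298, 2982, 2906 and 3261 FPKM in the untreated wild type livers. In those labelled Ncoa5+/- it was 1659, 2887, 2548, 1881 and 2266 FPKM. Here too the groups did not overlap, with mouse 2 labelled Ncoa5+/- just under the lowest wild type mouse. On the log2 scale the difference was -0.50 ± 0.15 (SE), with an unadjusted p of 0.00502 and an adjusted p of 0.453 with limma. Rescaled to the nuclear protein-coding sum, which shifted the median of all loci to 0.13, it was -0.33, with an unadjusted p of 0.0367 with limma.

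mt-Nd5, another proton-pumping subunit of complex I, was 2006, 1818, 1532 and 1682 FPKM in wild type livers and 1342, 1407, 1486, 1416 and 1395 FPKM in those labelled Ncoa5+/-. The mice labelled Ncoa5+/- lay close together, just under the lowest wild type mouse. mt-Nd6, the light-strand subunit of complex I, was 3026, 2182, 2672 and 2253 FPKM in wild type livers and 1793, 2387, 2129, 1784 and 1942 FPKM in the others. Its groups overlapped through mouse 2 labelled Ncoa5+/-. The log2 fold changes were -0.31 ± 0.13 for mt-Nd5 and -0.33 ± 0.13 for mt-Nd6 (SE), each with an adjusted p of 0.796 with limma. With the same rescaling they were -0.15 and -0.17.

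mt-Nd1, the complex I subunit at the start of the protein-coding part of the heavy-strand transcript, differed least among the 5 abundant members. It was 6124, 5399, 5262 and 5335 FPKM in wild type livers and 4203, 5559, 5591, 4871 and 5522 FPKM in those labelled Ncoa5+/-. Mice 2, 3 and 5 of that group exceeded 3 of the 4 wild type mice. Its log2 fold change was -0.11 ± 0.09 (SE), with an adjusted p of 0.918 with limma, and its sign turned under quantile normalization and when libraries were rescaled to the nuclear protein-coding sum (0.06).

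The 2 low members varied widely between mice. mt-Nd3 was 1.39, 1.25, 1.10 and 1.92 FPKM in untreated wild type livers and 0.307, 2.56, 1.32, 0.408 and 1.28 FPKM in those labelled Ncoa5+/-, which ranged both below and above the wild type mice. Its log2 fold change was -0.24 ± 0.31 (SE). For mt-Co2 the log2 fold change was 0.11 ± 0.43 (SE), and the sign turned with a pseudocount of 0.1 (-0.15) and when rescaled to the FPKM outside the mitochondrial genome.

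**Figure D2:**
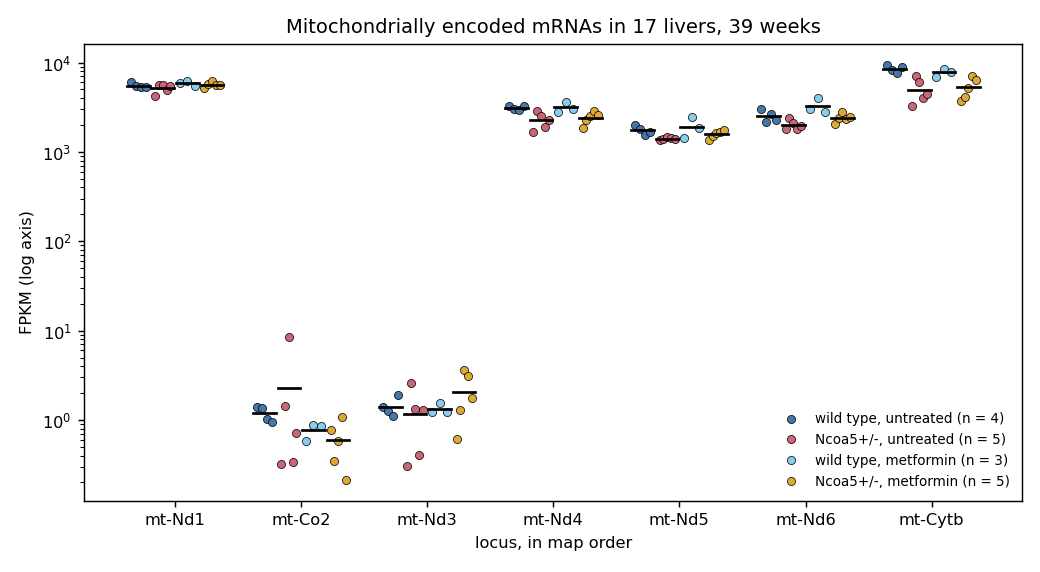
FPKM (log axis) of the 7 mitochondrially encoded mRNAs above 0 at 39 weeks, in map order. Points are mice, horizontal lines group means, colours the 4 groups. The points of mt-Cytb in both groups labelled Ncoa5+/- reach down to 3261 and 3720 FPKM, below every wild type mouse, while those of mt-Nd1 lie together.

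The summed level of the members was 19923 to 23900 FPKM in untreated wild type livers and 12258 to 19290 FPKM in untreated livers labelled Ncoa5+/-, a ratio of means of 0.734. Relative to the nuclear protein-coding FPKM of the same library it was 3.53% to 4.39% and 2.53% to 3.62%, which overlap, with a ratio of means of 0.820. Within this sum, mt-Cytb made up 39.8% ± 1.6 (SD, n = 4) in wild type livers and 30.9% ± 4.2 (SD, n = 5) in those labelled Ncoa5+/-. mt-Nd1 made up 25.7% ± 0.7 (SD, n = 4) and 33.0% ± 2.8 (SD, n = 5). The difference was thus spread unevenly over the members, and the share of mt-Nd4 stayed within 1 SD, at 14.5% ± 0.6 and 14.2% ± 0.7.

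A ratio of 2 mRNAs in the same library does not depend on how the library was scaled. The ratio of mt-Cytb to mt-Nd1 was 1.54, 1.54, 1.43 and 1.68 in the untreated wild type livers and 0.776, 1.27, 1.09, 0.823 and 0.797 in those labelled Ncoa5+/-. No mouse labelled Ncoa5+/- reached a wild type ratio, and mt-Cytb was the more abundant mRNA in all 4 wild type livers but in 2 of the 5 others. In the metformin wild type livers the ratio was 1.19, 1.36 and 1.43, and it overlapped both groups labelled Ncoa5+/-. It was below every untreated wild type mouse only by a near tie, with mouse 3 of each group at 1.4327 and 1.4345. The ratio of mt-Nd4 to mt-Nd1 was 0.564 ± 0.032 (SD, n = 4) and 0.433 ± 0.055 (SD, n = 5), again without overlap. The ratio of mt-Nd6 to mt-Nd1 was 0.457 ± 0.052 and 0.391 ± 0.035, with overlapping groups. These ratios were read after the levels and are given as a description, with no test.

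**Figure D3:**
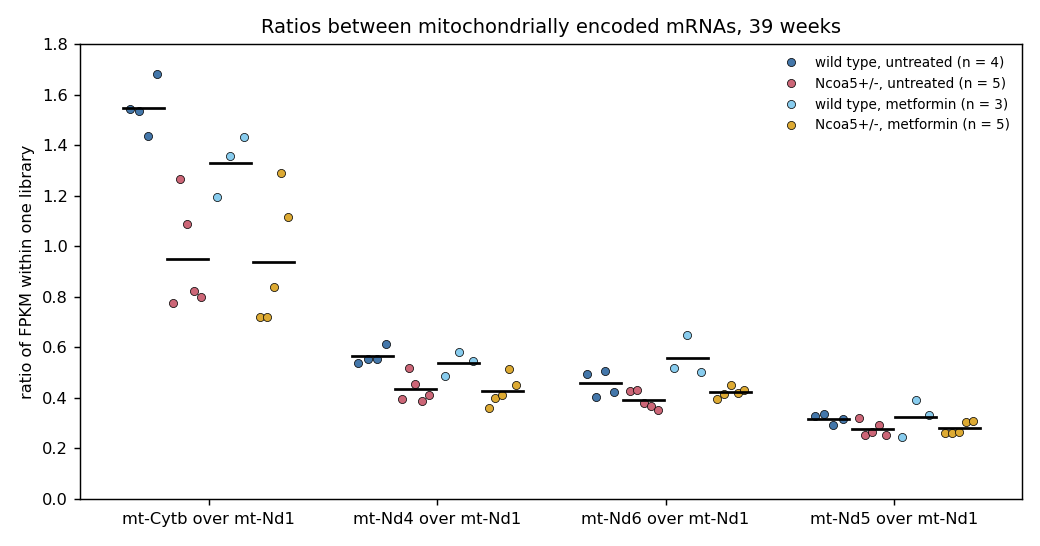
FPKM of mt-Cytb, mt-Nd4, mt-Nd6 and mt-Nd5 over FPKM of mt-Nd1 in the same library at 39 weeks. Points are mice and horizontal lines group means. For mt-Cytb the wild type untreated mice sit at 1.43 to 1.68, the wild type metformin mice at 1.19 to 1.43, and both groups labelled Ncoa5+/- at 0.718 to 1.29.

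Under metformin, mt-Nd6, mt-Cytb and mt-Nd4 had lower means in mice labelled Ncoa5+/- than in wild type mice, with overlapping groups, and no member passed the test over all loci. Of 7 tested members, 0 were called by limma, beside 0.157% of all loci. At an unadjusted p under 0.05, 3 of 7 were lower and 0 higher, beside 2.26% of all loci lower, and 0 of 7 had groups without overlap, beside 3.72% of all loci. The log2 fold change was negative for 6 of 7, beside 51.8% of all loci; among the 6, mt-Nd1 and mt-Nd5 turned sign under a rescaling. The metformin wild type group has 3 mice, and the summed nuclear protein-coding FPKM was 577742 to 612597 there against 486121 to 525901 in metformin mice labelled Ncoa5+/-.

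mt-Nd6 was 3029, 4029 and 2787 FPKM in metformin wild type livers and 2037, 2406, 2789, 2316 and 2453 FPKM in metformin livers labelled Ncoa5+/-. The groups met at mouse 3 of each, at 2787 and 2789 FPKM. The log2 fold change was -0.44 ± 0.14 (SE), with an unadjusted p of 0.00793 and an adjusted p of 0.815 with limma. For mt-Cytb the values were 6954, 8447 and 7926 FPKM against 3720, 4161, 5186, 7151 and 6319 FPKM. Only mouse 4 labelled Ncoa5+/- came above the lowest wild type mouse, and the log2 fold change was -0.59 ± 0.24 (SE). mt-Nd4 differed by -0.39 ± 0.17 and mt-Nd5 by -0.23 ± 0.14 on the log2 scale (SE), and for mt-Nd1 the difference was -0.05 ± 0.10 (SE). Rescaled to the nuclear protein-coding sum, the differences were -0.34 for mt-Cytb, -0.19 for mt-Nd6, -0.14 for mt-Nd4, 0.01 for mt-Nd5 and 0.20 for mt-Nd1. Their unadjusted p lay between 0.0671 and 0.928 with limma. That scaling shifted the median of all loci to 0.20, so these values are to be read beside it.

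Within mice labelled Ncoa5+/-, treated and untreated livers overlapped for every member tested. Of 7 members, 0 were called by limma and 0 had an unadjusted p under 0.05, beside 0% and 8.83% of all loci, and no group pair was without overlap, beside 1.57% of all loci. The log2 fold changes of treated over untreated were 0.14 ± 0.09 for mt-Nd1, 0.12 ± 0.14 for mt-Nd4, 0.17 ± 0.12 for mt-Nd5, 0.26 ± 0.13 for mt-Nd6 and 0.11 ± 0.20 for mt-Cytb (SE). These 5 were positive, as were 50% of all loci, and that of mt-Cytb turned sign without untreated mouse 1 or without metformin mouse 4, reaching -0.03. Over the alternatives these 5 values lay between -0.03 and 0.44. The summed level was 14129 to 19536 FPKM in treated mice against 12258 to 19290 FPKM in untreated mice, and the ratio of mt-Cytb to mt-Nd1 was 0.937 ± 0.255 against 0.950 ± 0.218 (SD, n = 5 each).

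mt-Nd3, a small complex I subunit, was 0.611, 1.28, 3.60, 3.12 and 1.74 FPKM in treated and 0.307, 2.56, 1.32, 0.408 and 1.28 FPKM in untreated mice labelled Ncoa5+/-. The groups overlapped, although treated mice 3 and 4 lay above every untreated mouse and untreated mice 1 and 4 below every treated one. The log2 fold change was 0.49 ± 0.29 (SE), with an adjusted p of 0.642 with limma. mt-Co2, a subunit of complex IV that receives electrons from cytochrome c, was 0.780, 0.344, 0.583, 1.08 and 0.213 FPKM in treated mice. In the untreated mice it was 0.320, 1.43, 8.57, 0.334 and 0.706 FPKM, so mouse 3 alone lay above 1.43 FPKM. The log2 fold change of mt-Co2 was -0.57 ± 0.40 (SE), with an adjusted p of 0.70 with limma. The authors' deposited table calls mt-Co2 different, with group values of 0.572 FPKM treated and 2.14 FPKM untreated and a q-value of 0.00668. Mouse 3 is also the library with over 70% of its FPKM in 50 loci.

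In wild type livers, metformin left 0 of 7 members called by limma, beside 0% of all loci. At an unadjusted p under 0.05, 1 of 7 was higher, mt-Nd6, beside 4.8% of all loci higher. Treated livers held 3029, 4029 and 2787 FPKM of mt-Nd6 and untreated ones 3026, 2182, 2672 and 2253 FPKM. The groups overlapped, and the log2 fold change was 0.37 ± 0.15 (SE), with an adjusted p of 0.475 with limma. The groups were without overlap for 1 of 7 members, mt-Co2, which was lower at 0.577, 0.872 and 0.865 FPKM than at 1.39, 1.38, 1.03 and 0.940 FPKM, beside 3.96% of all loci lower. The log2 fold changes of treated over untreated wild type mice were -0.14 ± 0.25 for mt-Cytb, 0.08 ± 0.11 for mt-Nd1, 0.09 ± 0.14 for mt-Nd5 and 0.01 ± 0.17 for mt-Nd4 (SE), and the signs of these 4 turned under at least 1 rescaling. The ratio of mt-Nd6 to mt-Nd1 was 0.557 ± 0.079 (SD, n = 3) in treated and 0.457 ± 0.052 (SD, n = 4) in untreated wild type livers.

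Whether the response to metformin differed between the labels was tested by the interaction term. Of 7 members, 0 were called by limma and 0 had an unadjusted p under 0.05, beside 0% and 2.79% of all loci. The interaction was 0.25 ± 0.32 for mt-Cytb and -0.11 ± 0.20 for mt-Nd6 on the log2 scale (SE), each smaller than its error. The 4 comparisons at 39 weeks share groups, so their values are given side by side and not as repeats of one another.

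**Figure D4:**
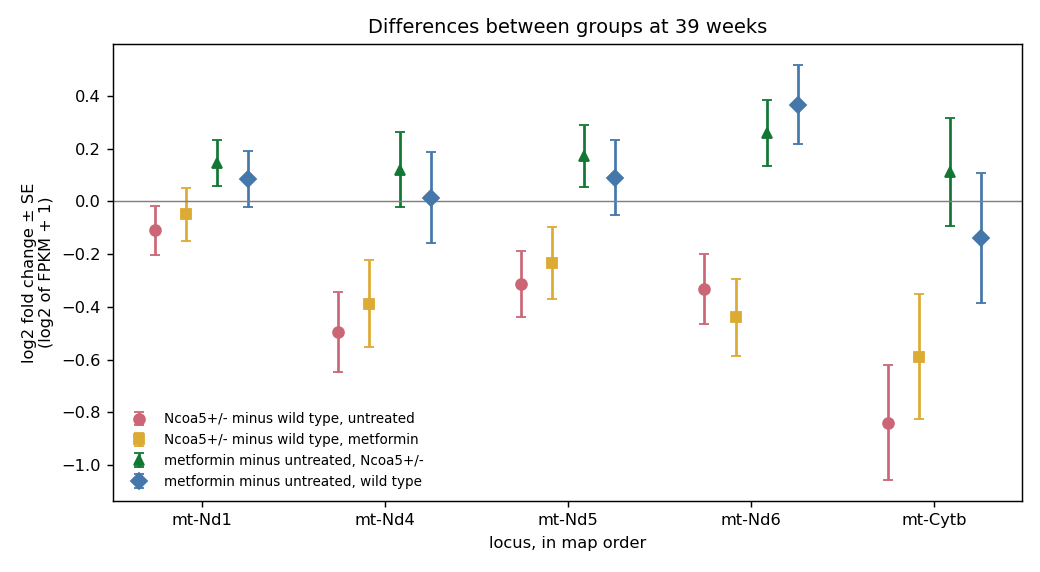
Log2 fold changes (log2 of FPKM + 1, points) with their standard errors (bars) for the 5 abundant members at 39 weeks, in map order, in 4 comparisons. The differences between labels are below 0 for all 5, from -0.05 to -0.84, and those of metformin lie between -0.14 and 0.37; under a rescaling the sign turns for mt-Nd1 and mt-Nd5 between labels, and for mt-Cytb, mt-Nd1, mt-Nd4 and mt-Nd5 with metformin in wild type mice.

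At 20 weeks, 4 members could be tested and 0 were called by limma, beside 0% of all 10963 loci. At an unadjusted p under 0.05, 0 of 4 passed, beside 7.48% of all loci, and no group pair was without overlap, beside 4.02%. mt-Nd1 was 11007, 13106, 9778 and 13015 FPKM in mice labelled Ncoa5+/- and 9732, 12681, 7426 and 9840 FPKM in wild type mice. The ranges overlapped, with wild type mouse 3 the lowest. This gave a log2 fold change of 0.26 ± 0.22 (SE). It turned to -0.13 when rescaled to the nuclear protein-coding sum, which shifted the median of all loci to -0.29.

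mt-Nd5 at 20 weeks was 2283, 2438, 2028 and 1898 FPKM in mice labelled Ncoa5+/- and 2692, 2143, 2991 and 2982 FPKM in wild type mice. Only wild type mouse 2 fell within the range of the other group. On the log2 scale the difference was -0.32 ± 0.18 (SE), with an unadjusted p of 0.106 and an adjusted p of 0.603 with limma. mt-Nd6 was 2605, 3949, 2933 and 3281 against 3625, 3577, 2847 and 2871 FPKM, with a log2 fold change of -0.02 ± 0.19 (SE) whose sign turned in 6 of 20 alternatives. Rescaled to the nuclear protein-coding sum, mt-Nd5 was -0.70 (unadjusted p 0.00557, adjusted p 0.125 with limma) and mt-Nd6 was -0.41 (unadjusted p 0.027, adjusted p 0.140 with limma). That scaling shifted the median of all loci to -0.29 and put 3399 of 11018 loci at an unadjusted p under 0.05 with limma. mt-Nd3 was 4.34, 2.75, 4.31 and 6.01 against 2.54, 7.71, 0.592 and 1.52 FPKM, in overlapping groups. mt-Cytb and mt-Nd4, which differed most between the untreated labels at 39 weeks, were listed at 0 at this age and could not be compared.

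**Figure D5:**
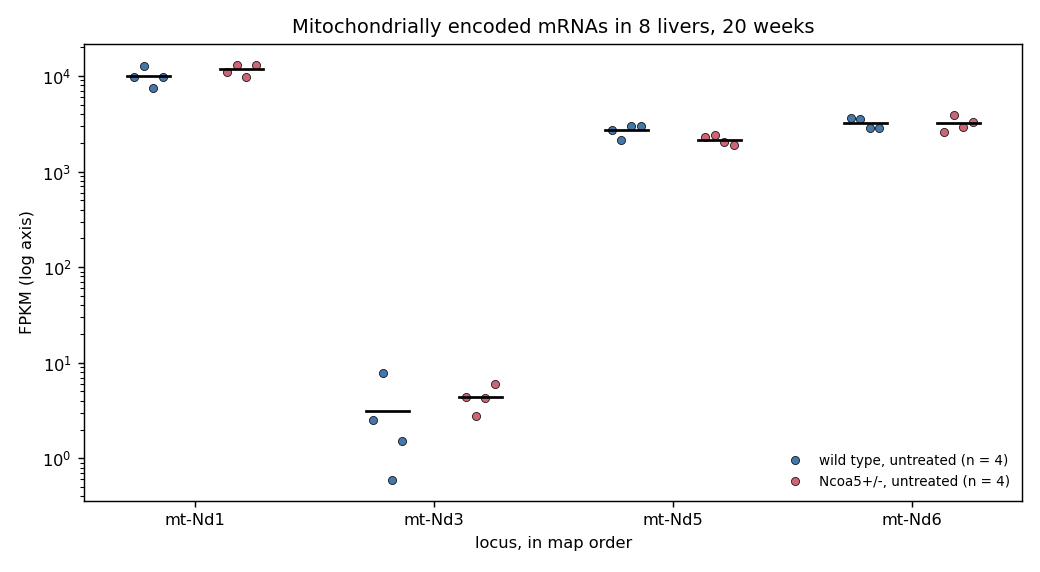
FPKM (log axis) of the 4 mitochondrially encoded mRNAs above 0 at 20 weeks. Points are mice and horizontal lines group means. mt-Nd5 lies at 2143 to 2991 FPKM in wild type mice and 1898 to 2438 FPKM in mice labelled Ncoa5+/-, and the groups overlap for all 4 mRNAs.

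Among the 7 loci with an estimate at 39 weeks, ordered by mean FPKM, mt-Cytb (6406) and mt-Nd1 (5517) led, followed by mt-Nd4 (2662), mt-Nd6 (2472) and mt-Nd5 (1634), and far below by mt-Nd3 (1.52) and mt-Co2 (1.26). The place of mt-Co1, mt-Atp6 and mt-Co3 is unknown. That of mt-Co2 is uncertain, because its locus had too many fragments to estimate at 20 weeks. The place of mt-Nd3 is uncertain too, because a near-identical nuclear copy covers 99.1% of it. The part of that copy in its low level was not tested. The order of mt-Cytb and mt-Nd1 turned between mice, and the ranges of mt-Nd4 and mt-Nd6 overlapped, as did those of mt-Nd3 and mt-Co2. mt-Nd6 exceeded mt-Nd5 in every mouse at 39 weeks, by 1.20 to 2.11 times, although the strand limit above applies to both.

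The nuclear genes that make, process and work with these mRNAs did not pass the test in any comparison. Across 12 lists with 261 genes, 229 passed the filter at 39 weeks and 230 at 20 weeks, and limma called 0 in each of the 6 comparisons. Between the labels at 39 weeks untreated, 1 gene was higher and 2 were lower at an unadjusted p under 0.05, which is 1.31% of those tested beside 5.62% of all loci. Between labels at 20 weeks the counts were 4 and 2 (2.61% beside 7.48%), and between labels under metformin 3 and 5 (3.49% beside 4.35%). With metformin in wild type mice they were 25 and 7 (14% beside 9.35%), and for the interaction 5 and 2 (3.06% beside 2.79%). Between the untreated labels at 39 weeks, the nuclear complex I subunits had 21 of 33 positive and 12 negative log2 fold changes. Their median was 0.03, beside -0.02 for all loci and -0.31 for the mitochondrially encoded members. In that comparison the complex III list held 5 positive and 4 negative, with a median of 0.01. There the 15 genes of mitochondrial DNA transcription and copying had 7 positive and 8 negative, with a median of -0.01.

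Between the untreated labels at 39 weeks, 17 of the 20 tested genes of mitochondrial RNA processing and stability had negative and 3 positive values. Their median was -0.07. Hsd17b10, which encodes a subunit of the enzyme that frees the 5′ ends of mitochondrial transfer RNAs from the long transcript, had the smallest p. It was 196 ± 18 FPKM (SD, n = 5) in mice labelled Ncoa5+/- and 257 ± 16 FPKM (SD, n = 4) in wild type mice, with ranges of 171 to 220 and 240 to 273. Those ranges did not overlap, beside 0.717% of all loci lower without overlap, but Hsd17b10 was picked for its p. The log2 fold change was -0.39 ± 0.09 (SE) with an adjusted p of 0.106 with limma. Ndufb6, an accessory subunit of complex I, went the other way at 228 ± 14 against 201 ± 11 FPKM (SD), with an adjusted p of 0.631 with limma.

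With metformin in mice labelled Ncoa5+/-, 10 genes of the 12 lists were higher and 5 lower at an unadjusted p under 0.05, which is 6.55% of those tested and below the 8.83% of all loci. Mrpl32, a protein of the mitochondrial ribosome, was 30.6 ± 1.8 FPKM treated and 25.7 ± 0.8 untreated (SD, n = 5 each), an adjusted p of 0.387 with limma. In wild type mice it was 31.5 ± 1.2 treated (SD, n = 3) and 26.4 ± 0.5 untreated (SD, n = 4), with an adjusted p of 0.267 with limma. Neither pair of groups overlapped. Mrpl32 had the smallest p of the 70 tested in its list in each label. Its separation in each label therefore follows in part from how it was picked. In mice labelled Ncoa5+/- 1.57% of all loci were without overlap. In wild type mice 3.96% of all loci were lower without overlap, and the share higher without overlap is not given here. Tfam, the packaging and transcription factor of mitochondrial DNA, was 36.5 ± 3.1 and 32.5 ± 2.1 FPKM in treated and untreated mice labelled Ncoa5+/-, an adjusted p of 0.567 with limma. Treated wild type mice held 28.9 ± 1.3 FPKM of Tfam (SD, n = 3), with an adjusted p of 0.483 with limma between the treated labels. The treated ranges, 32.9 to 40.6 and 27.5 to 30.0, did not overlap, beside 3.72% of all loci. Tfam also had the smallest p of its list there, so this follows in part from how it was picked. The nuclear complex IV subunits had 11 of 12 positive values with metformin in each label. In mice labelled Ncoa5+/- their median was 0.08, and 50% of all loci were positive. In wild type mice it was 0.22, beside -0.01 for all loci. The interaction was negative for 12 of 12 with a median of -0.14, beside 0.01 for all loci. In these comparisons 0 of the 12 were called, and their smallest interaction p was 0.107 with limma (Cox7a2, adjusted p 0.991). This is 1 of 12 lists. For wild type mice and the interaction, the share of all loci with these signs is not given here.

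Over the 17 livers at 39 weeks, the summed members were compared with each of 8604 nuclear loci by Pearson's r of log2 values, as a description. These points share the cohort, its normalization and the group differences above. The loci most like the members were Gstk1 (r = 0.84), a glutathione transferase of mitochondria and peroxisomes, Ndufb3 (0.83), an accessory subunit of complex I, Ccng2 (0.79), Oat (0.78), a mitochondrial enzyme of ornithine breakdown, and Nek1 (0.77). Those most opposed were Eif2d (-0.89), Aen (-0.89), Ccng1 (-0.87), Tmem43 (-0.87) and Bax (-0.87), whose product opens the outer mitochondrial membrane. With group means removed, r was -0.82 for Aen and -0.71 for Bax, and 0.62 for Gstk1 and 0.63 for Ndufb3. The sum at 20 weeks is another measure, with 4 loci instead of 7 and without mt-Cytb, mt-Nd4 and mt-Co2. On average mt-Nd1 made up 68.6% of it in mice labelled Ncoa5+/- and 62.0% in wild type mice. Over the 8 livers at 20 weeks, r with that sum was 0.34 for Gstk1, 0.68 for Ndufb3, 0.43 for Ccng2 and 0.60 for Nek1, but -0.38 for Oat. Among the opposed loci it was -0.56 for Aen, -0.19 for Ccng1, -0.12 for Tmem43 and -0.03 for Eif2d, but 0.34 for Bax, so Oat and Bax had the other sign.

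These loci were picked for their r over the same livers, in which the summed members differed between the labels. Their levels by group are therefore a description and no separate support. Aen was 9.49 to 11.2 FPKM in untreated wild type livers and 14.4 to 33.3 FPKM in untreated livers labelled Ncoa5+/-. Bax was 34.6 to 40.6 and 60.3 to 80.6 FPKM in the same groups. Ndufb3 was 105 to 114 and 94.2 to 97.8 FPKM, which is the reverse order and again without overlap, beside 0.717% of all loci lower without overlap. Among the other loci most like the members, Oat and Nek1 were also without overlap between these 2 groups. Gstk1 overlapped, at 127 to 148 and 91.5 to 131 FPKM, as did Ccng2, at 3.75 to 5.97 and 2.90 to 5.59 FPKM.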

How the data were processed

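Liver RNA of 25 mice was analysed in 2 cohorts. Per the submitters' processing notes, the authors used Trimmomatic 0.33, TopHat2, Cufflinks and Cuffnorm with GRCm38.p5. The deposited value per locus and mouse is FPKM. How Cuffnorm scaled libraries is not given in the sources used here. The authors' deposited comparison tables list group FPKM with a log2 ratio, a p-value and its adjusted q-value. A locus at 0 throughout 1 group but present in another was removed as a failed estimate (15 loci at 20 weeks, 14 at 39 weeks). limma 3.58.1 in R 4.3.3 (eBayes with trend) was fitted to log2(FPKM + 1) over loci with a cohort mean of at least 1 FPKM, 10963 at 20 weeks and 11441 at 39 weeks, with Benjamini-Hochberg adjusted p under 0.05 as threshold. The fit was tested on simulated data. Fold changes on this scale understate those of low genes. Nuclear copies were sought among GENCODE transcripts with blastn 2.17.0. Mice are numbered in the order of their records; nothing beyond separate labels describes how they were sampled, so p-values measure the spread between these samples.

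The members and gene lists were chosen with earlier results of these data known. The rule for named genes took all members, Ncoa5, from each list the gene with the smallest p where none passed (of which the text gives 4), and the 5 nuclear loci most and least like the summed members. Alternatives covered pseudocounts, filters, scalings, weights, failed estimates and leaving out each mouse, and rescaling to the nuclear protein-coding sum was chosen after seeing the data.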

Additional observations from a re-analysis of the deposited data

Results flagged for a closer look

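In 2 of 29 sets of a member and a group, 1 mouse lay far from the others; chance alone marks about 1 set in 20. mt-Co2 was 8.57 FPKM in untreated mouse 3 labelled Ncoa5+/- at 39 weeks, against 0.320 to 1.43 FPKM in the other 4 mice. mt-Nd1 was 6124 FPKM in untreated wild type mouse 1 at 39 weeks, against 5262 to 5399 FPKM in the other 3 mice.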

How the results depend on the processing

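No member was called by limma under any alternative run. Of 865 log2 fold changes recomputed, 33 changed sign and 38 moved by more than their standard error, all without a call. mt-Cytb, mt-Nd4, mt-Nd5 and mt-Nd6 kept a negative value between the untreated labels at 39 weeks under all 22 alternatives. mt-Cytb came nearest the threshold without untreated mouse 2 labelled Ncoa5+/-, at an adjusted p of 0.0847, and was -0.93 (adjusted p 0.225) without the libraries dominated by 50 loci. Rescaled to the nuclear protein-coding sum it was -0.67 (adjusted p 0.0961), with mt-Nd4 at -0.33, mt-Nd5 at -0.15 and mt-Nd6 at -0.17; that scaling shifted the median of all loci to 0.13. Over all loci, calls between the untreated labels ran from 9 to 195 around 30, and between the metformin labels from 4 to 817 around 18, highest with that scaling; the cause was not tested.

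The ratio of the summed members moved beyond the spread in 4 of 57 alternatives. With the nuclear protein-coding sum it was 0.824 instead of 1.08 between labels at 20 weeks and 0.938 instead of 0.791 under metformin. In these comparisons that scaling shifted the median log2 fold change of all loci to -0.29 and 0.20. For metformin in wild type mice it was 1.19 as a share of all FPKM and 1.20 relative to FPKM outside the mitochondrial genome, instead of 1.02; the cause was not tested. Between the untreated labels at 39 weeks it was 0.693 to 0.775 without 1 mouse and 0.820 with the nuclear protein-coding sum. No paired analysis was possible because mice carry no shared numbers in the labels. Read depth is unknown, so no limit from it can be given.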
